A study of Mus musculus with 2 samples.

Results

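Protoplasmic astrocytes of the adult mouse striatum were set against the other cells captured with them. The members were chosen by a rule on the unique molecular identifiers (UMIs, each standing for 1 captured mRNA molecule) of each cell barcode. A barcode was a member when it held at least 2000 UMIs and 300 detected genes and at least 5 of 8 astrocyte markers (Aldoc, Gja1, Slc1a2, Slc1a3, Aqp4, Cldn10, Ntsr2 and Slc4a4). It could hold at most 1 UMI in sum of Cx3cr1, Cldn5, Pdgfra and Mog, which mark microglia, endothelial cells, oligodendrocyte precursor cells (OPCs) and oligodendrocytes, and had to hold fewer than 3 UMIs of Agt and fewer than 2 of Gfap. The rule picked 1101 barcodes, 582 in library 1 and 519 in library 2, of 12262 with at least 300 genes and 12415 in all. Expression of Crym was not used. The comparison side, called all other barcodes here, held 6242 and 4718 barcodes with at least 300 genes; astrocyte barcodes that failed only the limits on Agt, Gfap or both (16 and 58 in library 1, 86 and 41 in library 2) were kept apart from it and are described on their own.

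The data were single-cell RNA-seq counts from 2 droplet libraries, replicates 1 and 2 of 1 condition: striatum of untreated mice aged 8 to 10 weeks, given as C57/Bl6J in the strain label but as C57BL/6NTac in the protocol of the same record, with no transgene or other allele named. Tissue was digested with pronase, passed through a fine filter and cleared of myelin debris, and the labels call the cells enriched for glia. By the study's methods, actinomycin D was present during dissociation to prevent changes of transcription caused by stress, which bears on the immediate early genes below. The labels do not give the number of mice per library or which chemistry version each was made with. Library 1 held 44597660 UMIs in 6978 barcodes and library 2 held 37982720 UMIs in 5437 barcodes. Of the barcode sequences, 9 occurred in both libraries, and 0 of these were protoplasmic in both. With 1 condition and 2 libraries there was no treatment to compare, so that the members are described in each library. The one test made, against Gfap-expressing astrocytes, splits barcodes by the rule's limit on Gfap and is given for genes outside the rule.

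Protoplasmic astrocytes are the bushy astrocytes of grey matter. Their fine processes wrap synapses and blood vessels, clear glutamate, GABA and potassium from the extracellular space, supply lactate, glutamine, lipoprotein and cholesterol, and are joined to each other by gap junctions. In healthy grey matter they hold little Gfap, the intermediate filament protein by which astrocytes of white matter, of the ventricular wall and of injured tissue are usually recognized. Crym encodes μ-crystallin, a protein that binds thyroid hormone in the cytosol and is made by a subset of striatal astrocytes.

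The members took 8.44% of the barcodes with 300 or more genes in library 1 (95% exact binomial interval 7.79 to 9.12) and 9.68% in library 2 (8.90 to 10.5), a mean of 9.06% ± 0.876 (SD, n = 2). Among barcodes with at least 2000 UMIs the shares were 12.9% and 12.7%. The intervals cover counting error only. The members held a median of 4749 UMIs and 2051 genes in library 1 and of 6442 UMIs and 2655 genes in library 2, with a median of 6.07% and 7.19% of their UMIs on the mitochondrial genome. All other barcodes held medians of 3725 and 5228 UMIs.

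Most members carried the full set of markers. All 8 were detected in 342 of 582 members in library 1 (58.8%) and in 405 of 519 in library 2 (78.0%). Just inside the threshold, 61 and 24 barcodes held 5 markers, and just outside it 80 and 26 held 4 while meeting every other criterion. Of the exclusion genes, 403 and 436 members held no UMI and 179 and 83 held 1, and 53 and 18 barcodes stayed outside with 2. Depth kept out another 452 and 287 barcodes that met every other criterion below 2000 UMIs. The barcodes set against the members therefore included some with astrocyte markers: 823 and 535 of them held 5 or more of the 8. Among these were 328 and 216 with 2000 or more UMIs but 2 or more exclusion UMIs. How many of them were astrocytes was not tested. The ratios of astrocyte genes given here are over a side that holds these barcodes.

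**Figure D1:**
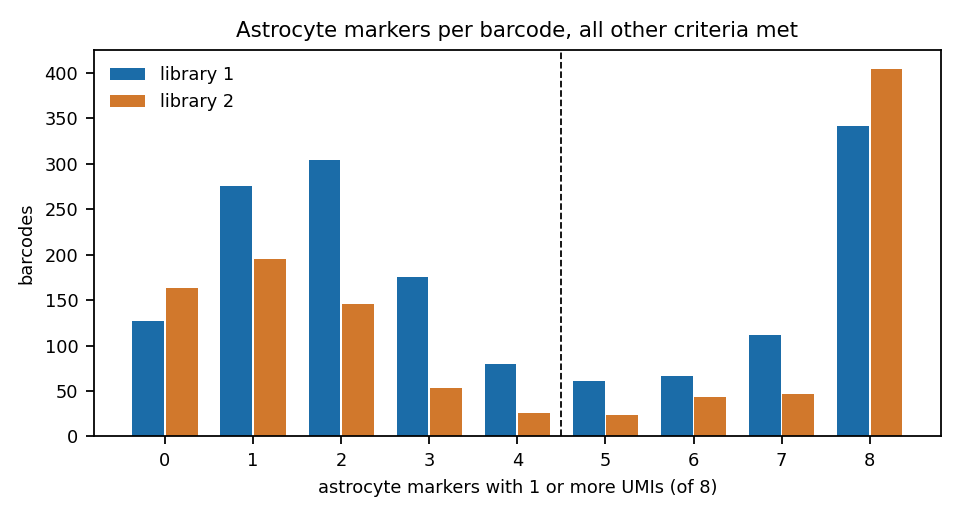
Number of barcodes (y axis) by the number of the 8 astrocyte markers detected (x axis) in library 1 and library 2, for barcodes that met every other criterion of the rule. Barcodes to the right of the dashed line were the members; the counts were lowest at 5 markers in both libraries and reached 342 and 405 at 8.

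Not every member was a pure astrocyte profile. The 8 markers, which the rule itself required, summed to 15212 and 20977 CPM (each gene's UMIs as a share of all UMIs of that group and library, on the usual CPM scale) in the members and to 1219 and 1003 CPM in all other barcodes. Slc1a2, the glial glutamate transporter GLT-1, led them with 5203 and 6847 CPM. However, 126 members in library 1 (21.6%) and 48 in library 2 (9.25%) also held the markers of another class: at least 5 of 8 markers of another cell type or of 8 cell-cycle genes, or at least 4 of 5 erythroid genes. They held medians of 8214 and 8862 UMIs and took 36.4% and 13.7% of the UMIs of all members. In library 1, 53 of them held markers of neuroblasts, the migrating young neurons of the ventricular wall, 42 held those of oligodendrocytes and 25 held cell-cycle genes, with a median of 25546 UMIs in the last. In library 2 these numbers were 13, 7 and 9. Scrublet, which marks doublets by simulation, called 3 and 2 members. The part of doublets, free RNA and astrocyte progenitors in these barcodes was not tested, and some of the levels that moved are given with and without them. Without them 456 and 471 members remained, the astrocyte markers summed to 21045 and 23184 CPM, neuroblast markers went from 1636 and 442 CPM to 173 and 146, and erythroid genes from 3165 and 5377 CPM to 135 and 19.4.

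**Figure D2:**
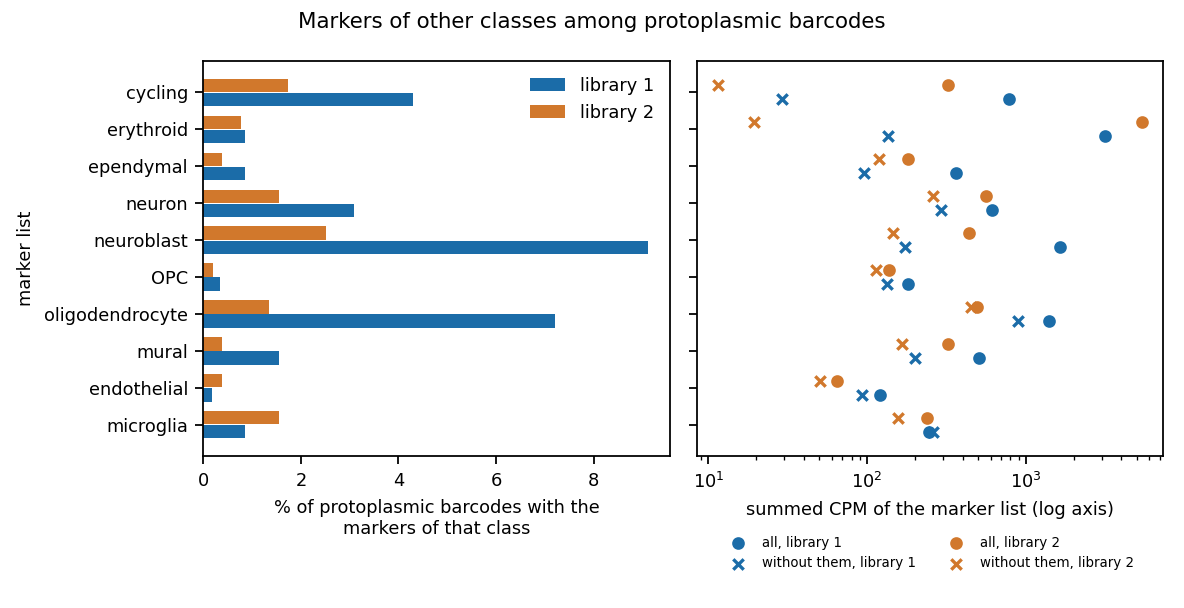
Left, percent of protoplasmic barcodes (x axis) that held the markers of each other class (y axis) in each library. Right, the summed level of each marker list in CPM (log axis) over all members (points) and without the barcodes that held another class's markers (crosses); neuroblast, erythroid and cycling sums moved furthest.

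The genes with the largest excess over all other barcodes, outside the rule, were led by Crym. Its level was 915.9 CPM in library 1 (95% Poisson interval 887.0 to 945.6) and 1516 CPM in library 2 (1476 to 1557), against 57.3 and 51.2 CPM in all other barcodes. The mean was 1216 CPM ± 424 (SD, n = 2), an 18.5-fold ratio, taken like every ratio here as the mean over both libraries of the log2 ratio with 10 CPM added to each side. No class outside the astrocytes came near it: the highest, neuron-like barcodes, stood at 60.9 and 103 CPM. The astrocyte barcodes kept apart held more than these, 306.3 and 281.3 CPM in the Gfap-expressing and 354.0 and 224.4 CPM in the Agt-rich ones. Its gene lies at chr7:120186380-120202111 on the minus strand of mm10. At 2000 UMIs per barcode, 39.3% and 48.7% of the members held a Crym UMI, against 5.02% and 3.29% of microglia-like barcodes thinned to the same depth; before thinning, at median depths of 4749 and 6442 UMIs, the shares in members were 49.3% and 59.3%.

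F3, tissue factor, which starts blood clotting, followed with 987.6 and 1263 CPM against 51.6 and 54.7 (17.8-fold). Fjx1, a secreted relative of the four-jointed kinase, stood at 776.4 and 1418 CPM against 52.8 and 51.0 (17.1-fold). Clu, clusterin, an extracellular chaperone carried on lipoprotein, was at 4475 and 5641 CPM against 346.1 and 277.4 (15.7-fold). Btbd17 (15.5-fold), Mt3 (14.9-fold), Kcnk1, Acsbg1 (13.9-fold), the long non-coding RNA Rmst (13.9-fold), Rorb (13.8-fold), Slc7a10 (13.7-fold), Cxcl14 (13.7-fold), Pla2g7 (13.4-fold), Fzd2 (13.4-fold) and Gjb6 (13.2-fold) completed the leading 15. When the members with another class's markers, and the few such barcodes with more Agt or Gfap, were moved to the side of all other barcodes (then 6379 and 4768), Crym stood at 19.6-fold and F3 at 20.2-fold. All these ratios belong to the contrast that the rule used and are descriptions without a test.

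In all, 715 of 10465 genes outside the rule with at least 10 CPM in either side of both libraries (6.83%) stood at least 2-fold higher in the members in both libraries, and 1126 (10.8%) at least 2-fold lower. In both libraries, 709 genes (6.77%) stood above every one of 7 other classes (microglia-, endothelial-, mural-, oligodendrocyte-, OPC-, neuroblast- and neuron-like barcodes, those with at least 20 barcodes per library). With the members that held another class's markers moved to the side of all other barcodes, which changes both sides of the ratio, 900 of 10490 genes (8.58%) were 2-fold higher.

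The promoters of the first 3 leading genes with an entry in RefSeq's promoter table (GRCm38.p6, the build of the counts) are shown as the regulatory sequence nearest to genes with the largest ratios over all other barcodes. Each is the 250 bases before the transcription start, 5′ to 3′ on the gene's strand: F3 at chr3:121723287-121723536 (plus), Btbd17 at chr11:114795893-114796142 (minus) and Mt3 at chr8:94152357-94152606 (plus).
F3: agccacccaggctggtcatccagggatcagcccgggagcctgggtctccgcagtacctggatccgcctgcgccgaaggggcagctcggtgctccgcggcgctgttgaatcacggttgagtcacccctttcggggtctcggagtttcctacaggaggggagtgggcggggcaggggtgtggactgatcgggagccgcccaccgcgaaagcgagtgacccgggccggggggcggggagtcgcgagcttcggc
Btbd17: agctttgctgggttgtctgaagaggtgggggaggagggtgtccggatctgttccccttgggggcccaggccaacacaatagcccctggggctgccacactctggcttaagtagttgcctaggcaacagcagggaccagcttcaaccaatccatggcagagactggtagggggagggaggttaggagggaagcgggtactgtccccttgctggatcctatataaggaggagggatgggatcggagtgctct
Mt3: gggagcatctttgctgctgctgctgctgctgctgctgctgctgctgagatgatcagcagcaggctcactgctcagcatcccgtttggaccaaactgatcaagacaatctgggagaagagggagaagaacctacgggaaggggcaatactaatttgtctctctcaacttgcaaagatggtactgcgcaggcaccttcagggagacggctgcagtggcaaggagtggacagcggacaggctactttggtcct
Of the 30 leading genes 22 had entries, with 26 promoter windows of 300 bases. Searched on both strands, the paired half-sites of nuclear factor I occurred in 0 of 26 windows, against 0.0365% of all 32851 windows of that length. The Sox letters ACAATG occurred in 1 of 26 (3.85%) against 12.6%, and the TATA letters TATAAA in 2 of 26 (7.69%) against 13.6%. These letters are a description of the windows only.

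UMIs were counted from the 3′ ends of mRNA, 1 per molecule, so that levels of different genes were compared without division by length. The most abundant transcripts outside the rule and the mitochondrial and ribosomal genes were the nuclear RNA Malat1 (64698 and 61443 CPM) and Apoe, the lipid carrier apolipoprotein E (21186 and 26572 CPM against 3427 and 2959 in all other barcodes). Cst3, cystatin C, an inhibitor of cysteine proteases, came next, at 17079 and 21845 CPM, but was no mark of these cells, with 17371 and 15012 CPM in all other barcodes and its highest level in microglia-like barcodes. Mt1, Ckb, Clu, Gm42418, Mt3, Ptn and Plpp3 followed. The genes lowest in the members relative to the others were those of myelin (among them Mal, Trf and Mag) and of microglia (C1qa, C1qb, C1qc, Ctss, Selplg and Csf1r). C1qa, of complement, was at 51.8 and 53.3 CPM against 2184 and 1833. It was at 55.2 and 16.7 CPM without the members that held another class's markers.

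Genes of transmitter uptake and recycling were high in the members. Of 10 genes for glutamate and GABA uptake and metabolism outside the rule, 8 stood 2-fold higher in both libraries and 0 lower, with a median log2 ratio of 1.95 beside -0.06 over all genes measured. Slc7a10, the transporter Asc-1 for serine, alanine and glycine, stood at 468.8 and 567.3 CPM against 31.0 and 25.9. Slc6a11, the GABA transporter GAT-3, stood at 302.3 and 427.0 CPM against 24.6 and 28.3, and no class outside the astrocytes passed 23.6 CPM in either library. Agt-rich astrocyte barcodes held more than the members, 914.5 and 2306 CPM, and Gfap-expressing ones held 219.5 and 544.4 CPM. Glul, glutamine synthetase, was more abundant in the members than Slc6a11, at 2248 and 2621 CPM. However, it was also present in oligodendrocyte-like barcodes (1412 and 1386 CPM), and its ratio was 2.48-fold. Aldh5a1 and Got1, which act in the breakdown of GABA and in aspartate exchange, stayed within 2-fold.

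Among 10 genes for ion, water and pH transport, 6 were higher and 2 lower, with a median log2 ratio of 2.97. Kcnk1, the potassium leak channel TWIK-1, was at 693.3 and 766.2 CPM against 47.3 and 38.8. Atp1b2, the β2 subunit of the sodium pump, was at 858.8 and 1421 CPM against 90.9 and 98.1. Kcnj10, the channel Kir4.1 that takes up potassium, did not set the members apart: it stood at 86.0 and 123.8 CPM against 102.5 and 121.8 in all other barcodes, and at 220.1 and 215.7 CPM in oligodendrocyte-like barcodes. Slc12a2, the chloride importer NKCC1, and Car2, carbonic anhydrase 2, were the 2 lower genes, at 36.1 and 32.0 against 303.0 and 413.6 CPM and at 303.8 and 398.1 against 1053 and 1336 CPM, and both were highest in oligodendrocyte-like barcodes. Slc12a2 was at 21.7 and 30.5 CPM without the members that held another class's markers.

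Of 10 junction and endfoot genes, 7 were higher and 0 lower (median log2 ratio 1.75). Gjb6, the gap junction protein of the connexin family, stood at 358.8 and 311.4 CPM against 21.0 and 11.9 and at no more than 5.84 CPM in any of the 7 other classes, though Agt-rich astrocyte barcodes held more, 752.3 and 764.9 CPM. Mlc1, a membrane protein of astrocyte endfeet, stood at 371.1 and 430.1 CPM against 31.5 and 21.1. Dtna, dystrobrevin α, was at 516.0 and 650.9 CPM. Dmd (dystrophin) and Dag1 (dystroglycan), which anchor endfeet to the basement membrane, were 3.91- and 2.47-fold higher, but both were higher still in mural-like barcodes, at 366.4 and 509.1 CPM for Dmd.

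**Figure D3:**
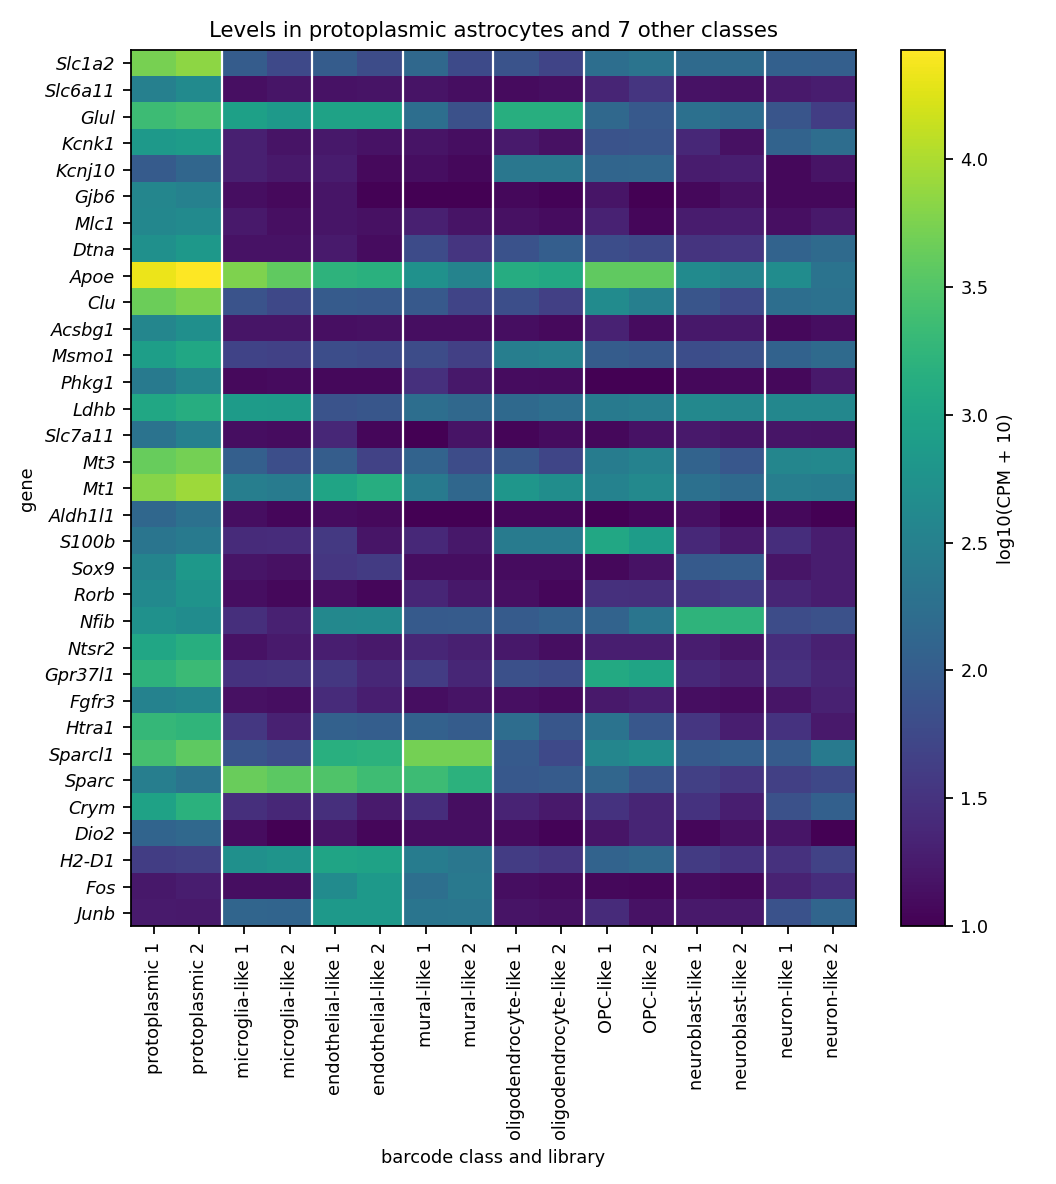
Level of 33 genes (y axis) in protoplasmic astrocytes and 7 other classes in each library (x axis), as log10 of CPM + 10. Slc6a11, Gjb6, Mlc1, Acsbg1, Slc7a11, Rorb, Fgfr3 and Crym were highest in the astrocyte columns, while Kcnj10, Glul, S100b, Nfib, Sparc and Sparcl1 were as high or higher in another class or near it.

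Lipid handling was the list with the most genes above every other class. Of 16 genes for lipoprotein and lipid metabolism 13 were higher, 0 lower, and 12 stood above every other class in both libraries (median log2 ratio 2.89). After Clu, Acsbg1, which activates long-chain fatty acids, had the largest ratio, at 359.0 and 500.7 CPM against 23.5 and 19.2. Apoe was 7.43-fold higher. Prdx6, a peroxiredoxin with phospholipase activity, stood at 1657 and 2129 CPM against 210.0 and 172.2. Abca1, which loads cholesterol onto apolipoprotein, and Scd2, a fatty acid desaturase highest in oligodendrocyte-like barcodes, were not 2-fold apart.

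Of 16 genes for cholesterol synthesis, 7 stood above every other class in both libraries, and Msmo1, Sqle and Nsdhl were 2-fold higher in both libraries and 0 were lower, with 13 between, although the median log2 ratio was 0.99. Msmo1, a sterol oxidase, was the one large excess, at 815.2 and 1084 CPM against 176.2 and 200.3. Hmgcs1, an early enzyme of the pathway, stood at 185.3 and 274.0 CPM against 203.5 and 276.2. With the members that held another class's markers moved to the other side, 8 of the 16 were higher.

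In the list for glycolysis, glycogen and lactate, 8 of 17 genes were higher and 1 lower (median log2 ratio 1.03). The leading genes were those of glycogen use. Phkg1, a catalytic subunit of phosphorylase kinase, stood at 250.2 and 359.9 CPM against 14.7 and 15.1, and Pygb, brain glycogen phosphorylase, at 124.0 and 189.3 against 22.6 and 21.6. Ldhb, the lactate dehydrogenase subunit favouring pyruvate, was at 1077 and 1344 CPM against 377.5 and 333.6, while Ldha was 1.11-fold apart. Slc2a1, the glucose transporter of the blood-brain barrier, was lower, at 129.8 and 118.4 against 556.0 and 248.3 CPM, with its highest level in endothelial-like barcodes.

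For serine and glycine metabolism, 5 of 11 genes measured were higher and 0 lower (median log2 ratio 0.98). They were Cbs (8.42-fold), which makes cystathionine, the cystine importer Slc7a11 (7.57-fold), the glycine decarboxylase Gldc (6.71-fold), the neutral amino acid transporter Slc1a4 (5.51-fold) and the phosphoserine phosphatase Psph (2.70-fold). Phgdh, the first enzyme of serine synthesis, was the most abundant, at 528.6 and 724.5 CPM, but oligodendrocyte-like barcodes held 576.7 and 588.5 CPM. Psat1, the enzyme that follows it, was at 152.1 and 199.8 CPM against 163.3 and 207.8.

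The metallothioneins, which bind zinc and copper, were the strongest of the antioxidant and metal-binding list, where 6 of 14 genes were higher and 1 lower (median log2 ratio 0.58). Mt1 stood at 6385 and 8302 CPM against 772.2 and 682.0, Mt2 at 1326 and 1605 against 116.2 and 101.7 and Mt3 at 4271 and 5135 against 370.3 and 251.2. Aldh1l1, a folate enzyme commonly used as an astrocyte marker, was 8.90-fold higher at a modest level of 128.2 and 182.2 CPM. S100b, a calcium-binding protein also used as an astrocyte marker, was not: it stood at 206.6 and 249.9 CPM against 208.2 and 205.3 in all other barcodes and at 1136 and 768.7 CPM in OPC-like barcodes. Gpx1, a glutathione peroxidase, was lower, at 53.3 and 43.1 against 157.7 and 132.0 CPM.

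**Figure D4:**
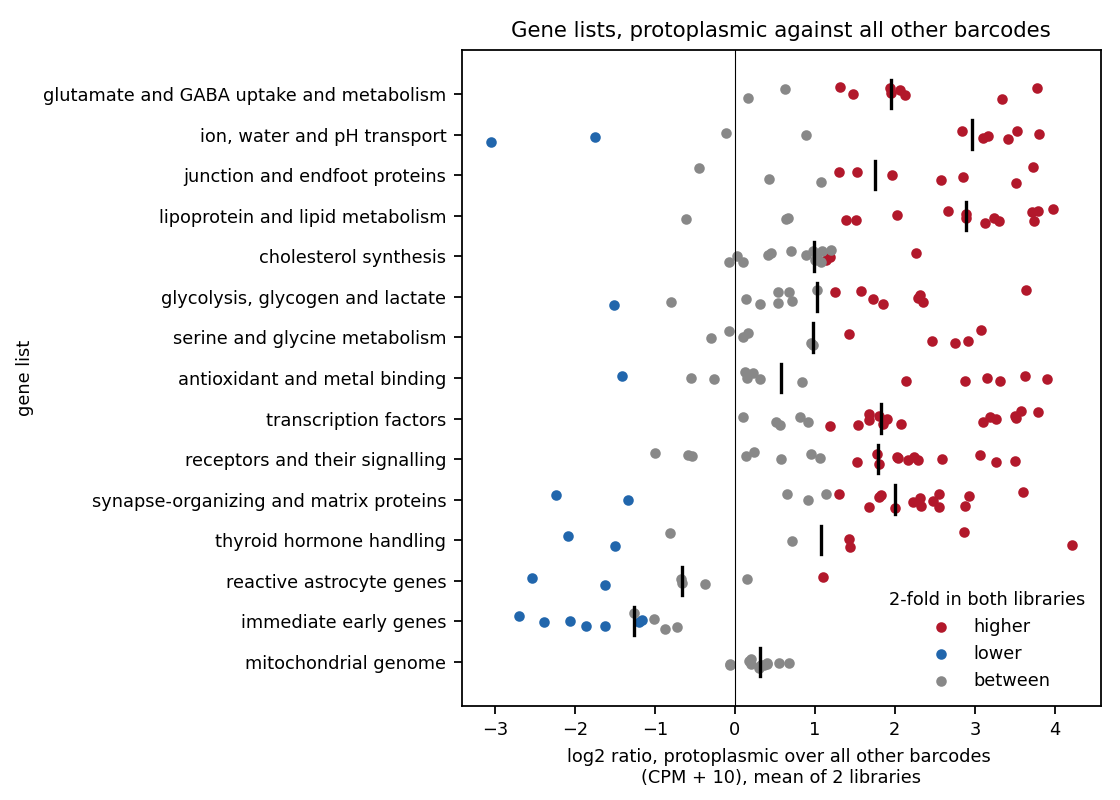
Log2 ratio of protoplasmic astrocytes over all other barcodes (x axis, mean of 2 libraries, 10 CPM added) for the measured genes of 15 lists (y axis); each point is a gene, coloured by whether it was at least 2-fold apart in both libraries, and black bars are medians. Lipid and ion transport lists lie furthest to the right, immediate early genes furthest to the left.

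Of 20 transcription factors 15 were higher and 0 lower, with a median log2 ratio of 1.83. Rorb, an orphan nuclear receptor, stood at 408.7 and 561.9 CPM against 27.5 and 23.7. Sox9, a factor of glial fate, stood at 342.1 and 669.3 against 31.8 and 30.2. Zbtb20 and Id2 were the most abundant of the others, at 1369 and 1096 CPM and at 730.9 and 877.2 CPM. Lhx2 was 9.62-fold and the Notch target Hes5 9.10-fold higher. The nuclear factor I genes Nfia, Nfib and Nfix stayed within 2-fold and were highest in neuroblast-like barcodes, where Nfib stood at 1673 and 1652 CPM against 530.0 and 459.0 in the members. Nfib was at 323.9 and 413.1 CPM without the members that held another class's markers. The forebrain factor Six3 (77.0 and 115.0 CPM) was 4.24-fold higher than in all other barcodes.

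Among receptors and their signalling, 12 of 20 measured genes were higher and 0 lower (median log2 ratio 1.79). Fgfr3, a fibroblast growth factor receptor, stood at 321.9 and 367.2 CPM against 23.8 and 18.65. Gpr37l1, an orphan receptor of glia, stood at 1611 and 2150 CPM and was also high in OPC-like barcodes (1191 and 991.9 CPM). Ptprz1, a receptor phosphatase, was at 1250 and 1541 CPM, below the 2121 and 2617 CPM of OPC-like barcodes. Grm3, the group II metabotropic glutamate receptor mGluR3, stood at 167.2 and 266.9 CPM against 47.1 and 60.5, while Grm5, a group I receptor, was at 16.2 and 29.2 CPM and at 967.8 and 836.8 CPM in neuron-like barcodes. Without the members that held another class's markers Grm5 was at 5.33 and 9.52 CPM. Levels of Adra1a (6.30 and 10.5 CPM), Adra1b (4.36 and 7.08 CPM) and P2ry1 (1.70 and 1.70 CPM), which couple to calcium release, were near the lower limit of the counts.

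Of 19 measured genes for synapse-organizing and matrix proteins, 14 were higher and 2 lower (median log2 ratio 2.01). Htra1, a secreted protease, stood at 1890 and 1715 CPM against 180.7 and 107.3, and Gpc5, a heparan sulfate proteoglycan of the membrane, at 229.2 and 329.5 against 25.5 and 29.7. Sparcl1 (hevin), which bridges presynaptic and postsynaptic adhesion molecules, stood at 2610 and 3767 CPM against 523.4 and 531.0, and mural-like barcodes held 5073 and 5033 CPM. Its relative Sparc was lower, at 283.2 and 200.04 against 1339 and 1001 CPM, and highest in microglia-like barcodes. Pros1, a ligand of Mertk, was the other lower gene. Of the thrombospondins, which are secreted by astrocytes and act on synapse number, Thbs1 had 0 UMIs in members of either library, and Thbs4 stood at 28.6 and 11.6 CPM.

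Of 8 genes of thyroid hormone handling, 4 were higher, Crym among them, and 2 lower. Dio2, the deiodinase that activates thyroid hormone, stood at 118.0 and 133.5 CPM against 10.7 and 6.59. The carrier Slco1c1 was at 487.4 and 436.4 CPM, with 1261 and 1534 CPM in endothelial-like barcodes. Thrb was 2.69-fold higher, and the carriers Slc7a5 and Slc7a8 were lower.

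Of 7 measured reactive genes outside the rule, C4b, of complement, was higher, at 35.6 and 40.2 CPM against 11.9 and 12.55, and H2-D1 and Cp were lower, where 6.83% of all genes were higher and 10.8% lower. Vim, the intermediate filament vimentin, was at 184.1 and 99.7 CPM against 248.4 and 195.7, and at 96.4 and 72.9 CPM without the members that held another class's markers. Lcn2 and Cxcl10 had 0 UMIs in members of both libraries. Of 11 immediate early genes 0 were higher and 7 lower (Fos, Fosb, Jun, Junb, Jund, Ier2 and Zfp36), where 10.8% of all genes were lower, with a median log2 ratio of -1.26; Fos stood at 6.54 and 8.78 CPM, against 52.05 and 77.55 in all other barcodes and 442.3 and 684.4 in endothelial-like barcodes. The 13 mitochondrially encoded genes all stayed within 2-fold. With the members that held another class's markers moved to the other side, as above, the counts changed in several lists. Serine and glycine metabolism then had 7 genes higher, junction and endfoot proteins 8, synapse-organizing and matrix proteins 15 and transcription factors 14. Reactive genes had 3 lower, receptors 1 lower and the glycolysis list 0 lower. Counts of the lists not named here, other than cholesterol synthesis, were unchanged.

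To compare the members with their nearest relatives, counts were summed per library and set against barcodes that met the same criteria on depth, markers and exclusion genes but held 2 or more Gfap UMIs, with no limit on Agt (58 and 41 barcodes). The 14 genes of the rule were left out of it. The gates also differed in depth and quality: the Gfap-expressing barcodes held medians of 6772.5 and 6752 UMIs, against 4749 and 6442 in the members, and 3.45% and 2.44% of them had at least 20% mitochondrial UMIs, against 8.08% and 10.2%. Their Agt level was 60.2 and 251.0 CPM, against 30.5 and 39.7. The part of these differences in the calls was not tested as such; under 20% mitochondrial UMIs 20 genes passed, and at 4000 or more UMIs 81. In edgeR's quasi-likelihood fit, blocked on library, at an adjusted p under 0.05, 89 of 11689 genes differed (0.761%), 55 higher (0.471%) and 34 lower (0.291%) in the members. All 89 moved the same way in library 1 and library 2. A fit with this block calls mainly genes whose differences agree between the 2 libraries, so that this is no separate support. The call rests on the block: without it 0 genes passed, with 651 below an unadjusted 0.05. With 2 libraries the spread was estimated with few degrees of freedom, and the p-values measure the spread between these libraries only.

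The members held more Crym than Gfap-expressing barcodes, 915.9 and 1516 against 306.3 and 281.3 CPM (log2 fold change 2.01 ± 0.20 SE, edgeR adjusted p = 0.00016). Their 2 libraries lay above both libraries of the other gate. Some genes of synapse contact and transmitter sensing were higher as well, though most of their lists did not pass the test: Gabbr2, a GABA-B receptor subunit (69.5 and 120.7 against 14.2 and 45.4 CPM, log2 fold change 1.78), Gpc5 (1.17), Grm3 (1.11), Mertk, a receptor for engulfment (1.07), and Htra1 (0.98). Slc7a10, Kcnk1, Slco1c1, Timp4 and Lsamp were also higher, with log2 fold changes from 0.76 to 0.90. Not all were highest in the members. Agt-rich barcodes, of which library 1 held 16, had more Gabbr2 (162.3 and 194.4 CPM), Slc7a10, Timp4 and Lsamp in both libraries. They had less Grm3, Htra1 and Slco1c1 in both, and for Gpc5, Mertk and Kcnk1 the libraries went different ways. These differences were not tested. By list, 5 of 20 tested synapse-organizing genes were higher and 1 lower, with a median log2 fold change of 0.40 beside 0.01 over all genes, and 2 of 22 receptor genes and 2 of 7 thyroid hormone genes, Crym and Slco1c1, were higher. Without barcodes with another class's markers, 8 synapse-organizing genes were higher and 1 lower, and 4 receptor and 2 thyroid hormone genes were higher. Transcription factors then had 3 higher and the glycolysis list 2, in place of 0 in each. The reactive list had 3 lower, in place of 2. Of all genes, 1.53% were higher and 1.77% lower in that comparison.

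The genes with the largest excess in Gfap-expressing barcodes were led by one nearly absent from the members. Myoc, a secreted protein of the extracellular matrix, stood at 1.45 and 1.42 CPM in the members against 93.8 and 665.4 CPM (log2 fold change -7.00 ± 0.38 SE, edgeR adjusted p = 1.4e-07). Thbs4 stood at 28.6 and 11.6 against 201.8 and 205.7 CPM (-3.31 ± 0.27 SE, edgeR adjusted p = 1.6e-05). The transcription factor genes Emx1 and Prrx2, the lipid droplet gene Cidea, Ecrg4, Egln3 and the sodium pump modulator Fxyd6 completed the largest 8, with log2 fold changes from -4.19 to -2.85. Some rest on few UMIs: in the Gfap-expressing barcodes Prrx2 stood at 14.2 and 36.3 CPM and Egln3 at 23.0 and 48.4. Others were uneven between the libraries there, with Cidea at 7.08 and 133.1 CPM and Ecrg4 at 54.9 and 402.3. Of the reactive list, 2 of 10 tested genes were lower in the members, Vim (184.1 and 99.7 against 478.0 and 523.2 CPM, -1.83) and C4b (-1.11). Fabp7, a fatty acid binding protein of glial progenitors, Fxyd1, Psph and Jund were lower too, with log2 fold changes from -1.15 to -0.81. In library 2, the Gfap-expressing barcodes also held 1881 CPM of ependymal markers, against 181 CPM in the members, and in library 1 they held 998 CPM of mural markers, led by Acta2 at 440.8 CPM, against 509 CPM. The part of these in the differences was not tested.

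The largest excesses in the members over Gfap-expressing barcodes were not astrocyte genes. Hba-a1, Hbb-bs, Hba-a2 and Hbb-bt, which encode haemoglobin, had log2 fold changes from 5.39 to 6.18. Hbb-bs stood at 1968 and 3351 CPM against 79.7 and 15.1. Hba-a1 and Hba-a2 are near-identical copies, between which reads are shared out uncertainly. Dlx5, a neuroblast factor, the mural genes Vtn and Rgs5, and Penk followed, with log2 fold changes from 2.55 to 3.54. When the barcodes with another class's markers were left out of both gates (456 and 471 members against 48 and 39 barcodes), the haemoglobin genes no longer passed the test: Hbb-bs was at -0.21 (edgeR adjusted p = 0.84), Hba-a1 at 0.47 (0.84) and Vtn at 0.17 (0.94), with Penk at 1.21 (0.14) and Rgs5 at 1.20 (0.46). The filter used erythroid genes and mural markers, Vtn and Rgs5 among them, so that it removed their counts by its construction. Crym kept its call at 2.26 and Vim, Myoc and Thbs4 kept theirs at -2.34, -7.45 and -3.44. In that comparison 345 of 10448 genes differed (3.3%), 160 higher (1.53%) and 185 lower (1.77%), and 73 of the 89 genes were among them.

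**Figure D5:**
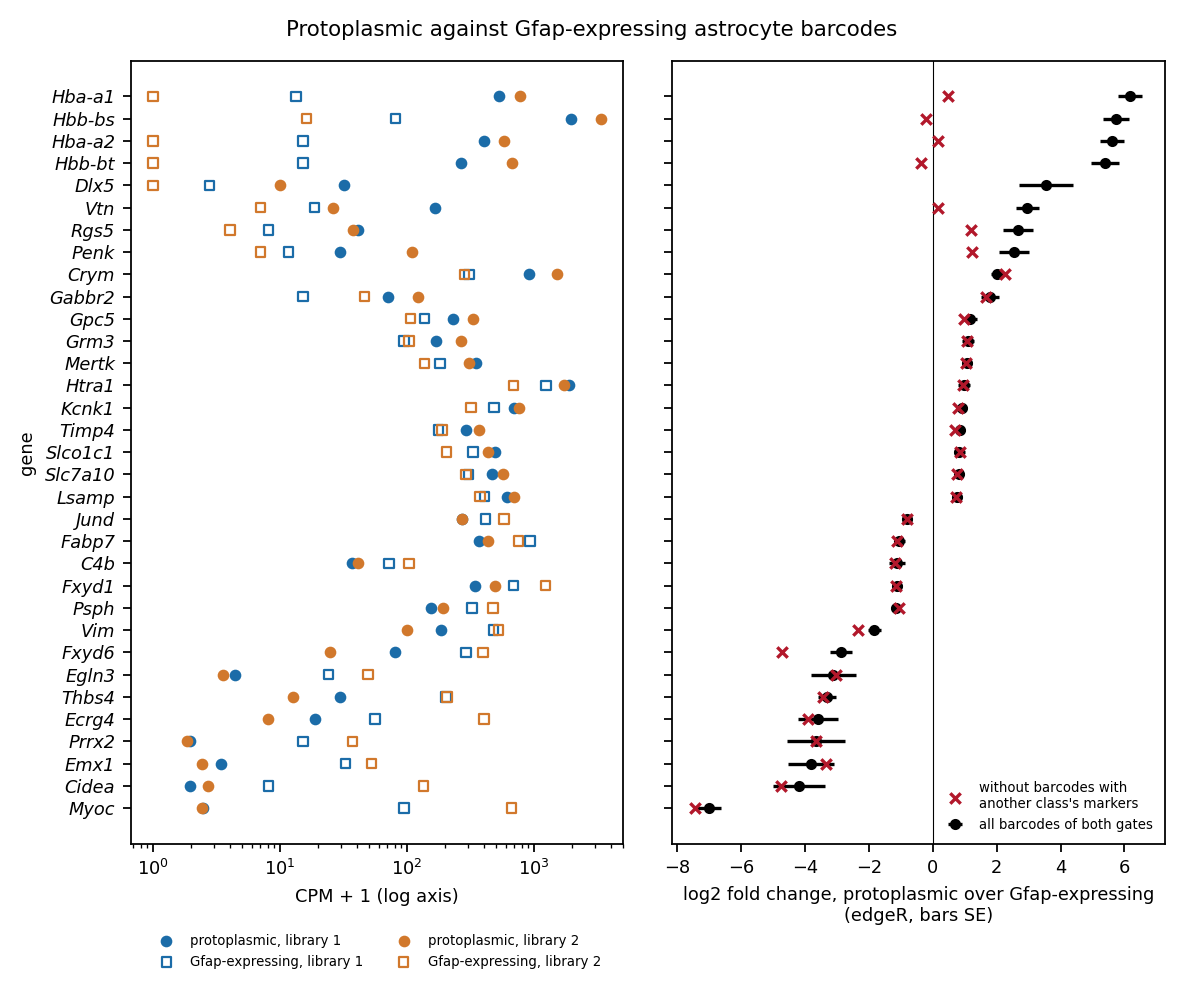
Left, level in CPM + 1 (x axis, log) of 33 genes (y axis) in protoplasmic (points) and Gfap-expressing (squares) barcodes of each library. Right, log2 fold change of protoplasmic over Gfap-expressing barcodes with its SE, and without barcodes that held another class's markers (crosses); the haemoglobin genes moved to near 0, while Crym, Vim, Thbs4 and Myoc kept their side. Dlx5 was not tested without those barcodes and has no cross.

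A second gate of relatives, with 3 or more Agt UMIs and fewer than 2 of Gfap, held 16 barcodes in library 1 and 86 in library 2. At fewer than 20 in library 1 no test was made, and the values stand side by side. Slc6a11 stood at 302.3 and 427.0 CPM in the members and at 914.5 and 2306 CPM in the Agt-rich barcodes. Itih3 stood at 50.1 and 81.3 CPM against 317.1 and 1436, Lgi1 at 24.95 and 42.5 against 177.0 and 207.3, and Sparc, low in the members, at 283.2 and 200.04 against 818.6 and 1378. Crym went the other way, with 915.9 and 1516 CPM against 354.0 and 224.4. F3 stood at 987.6 and 1263 CPM against 1261 and 1677, so that this leading gene was not lower in the Agt-rich barcodes. Itih3, Lgi1 and Sparc were named after their values were seen, and nothing is read from the differences listed here. Agt encodes angiotensinogen and is known for its unequal levels between astrocytes of different brain regions.

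The members differed among themselves. Each was thinned to 2000 UMIs, and the Fano factor (variance over mean, near 1 for counts that vary by sampling alone) was taken per gene and library. Of 2981 genes, 102 had a Fano factor of at least 2 in both libraries, against medians of 1.11 and 1.10. The haemoglobin genes led, with a Fano factor of 732 and 932 for Hbb-bs, whose UMIs lay to 98.1% in the top 10% of the members in library 1, with up to 823 UMIs in 1 barcode. Malat1 (123 and 62.0), Cst3 (25.7 and 18.9) and Apoe (24.2 and 17.3) followed, with 5 mitochondrial genes, among the 12 most variable. The Fano factor was not corrected for a gene's level, and these are abundant genes: Malat1 had means of 168 and 130 thinned UMIs per member, against 1.83 and 2.74 for Crym. Crym stood among the more variable genes outside the haemoglobins, with 8.20 and 6.58: 61.8% and 47.6% of its thinned UMIs lay in the top 10% of the members. For Malat1 this share was 27.7% and 24.4%. The neuroblast and progenitor genes Sox11, Stmn1, Ccnd2 and Hmgb2 had Fano factors from 4.12 to 8.69. Without members with another class's markers 50 of 2941 genes reached 2, and in the members that remained Hmgb2 was at 118.9 and 93.9 CPM in place of 803.1 and 335.5, and Sox11 at 72.0 and 92.9 CPM in place of 626.5 and 211.7. Hbb-bs was then at 83.8 and 13.1 CPM in place of 1968 and 3351. Of the 12 most variable genes, 8 were still among the first 12.

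The libraries agreed for most genes. Of 1904 genes with at least 100 CPM in the members of either library, 92 lay more than 2-fold apart, and the median absolute log2 difference was 0.30. Some of the largest differences were shared by all other barcodes of the same libraries: Rpl10, a ribosomal protein gene, stood at 549.9 and 11.3 CPM in the members and at 903.7 and 16.9 in the others, and Rpl9 at 1022 and 171.1 against 1176 and 248.6. Lars2 stood at 117.0 and 419.9 CPM in the members and at 142.9 and 406.7 in the others, and Gm20594 at 0 and 264.9 CPM against 0.152 and 160.4. Others were larger in the members or ran the other way. Hist1h2ap, a histone gene of dividing cells, stood at 361.9 and 27.2 CPM in the members and at 150.5 and 37.9 in the others, and Penk, proenkephalin, at 28.8 and 108.8 against 117.5 and 52.0. Insig1, which restrains cholesterol synthesis, stood at 95.9 and 255.3 CPM in the members and at 55.2 and 101.8 CPM in all other barcodes.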

How the data were processed

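The authors deposited UMI counts per gene and barcode for each library, made with Cell Ranger 4.0 on mm10 (per the submitters' processing notes; the study's methods name another version), for 32285 genes, without normalization. These counts are raw and depth ranged from 37982720 to 44597660 UMIs per library. Barcodes were gated on them in python 3.11.15 (pandas 2.3.3, scipy 1.17.1, numpy 2.4.6), and Scrublet in scanpy 1.11.5 (expected rate 6%) marked 96 (1.39%) and 159 (2.96%) barcodes as doublets, which were kept in the main analysis. The members, gene lists and tests were chosen with earlier results of these data known. Classes of other barcodes were rebuilt from fixed markers (at least 2000 UMIs, at least 5 of 8 markers, fewer than 3 astrocyte markers), and differences from the study may lie in these rebuilt names.

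Members against all other barcodes is the contrast of the rule and got no test; counts were summed per library, scaled to CPM, and ratios taken with 10 CPM added. Members and Gfap-expressing barcodes were summed per library and fitted in edgeR 4.0.16 (R 4.3.3; TMM, filterByExpr, quasi-likelihood, library as block, since both sums of a library come from 1 suspension), with Benjamini-Hochberg adjustment over all genes outside the rule; DESeq2 1.42.0 was an alternative. On simulated counts of 11752 genes for this comparison, 17.2% of 2-fold and 77.8% of 4-fold changes were recovered, with 4 false calls. The simulation set the same spread for every gene and held no single barcodes with extreme counts, so that it does not give the number of false calls in the real data. The test planned against Agt-rich barcodes was not made, since library 1 held 16. Named genes were the rule genes and Crym, the leading 15 by ratio, the 10 most abundant, the 10 lowest, examples from each list (the largest ratios and the most abundant of the rest, and others where a role needed naming), the 8 largest rises and falls against Gfap-expressing barcodes, the 12 most variable and the largest differences between libraries. Lgi1, Itih3, Sparc, Sox11, Stmn1, Ccnd2 and Hmgb2 were named after their values were seen, and the list of cell-cycle genes was chosen then too. Promoters are RefSeq's (GRCm38.p6); positions of genes are from GENCODE on the same build. Some genes that this rule names are not reported here. Intervals and limits cover counting error only.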

Additional observations from a re-analysis of the deposited data

How the results depend on the processing

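The share of members (mean 9.06%) was 13.5% at a minimum of 1000 UMIs, 5.91% at 4000, 6.99% when no exclusion UMI was allowed and 7.70% without barcodes holding another class's markers (this last setting was added once the data had been seen). The 715 genes 2-fold higher became 1095 with 1 CPM added and 281 with 50. The 153 named genes that were 2-fold apart in both libraries kept their sign in every setting tried. They include genes of the rule and genes named for their ratio in this contrast, and every setting gated on the same markers. Kept signs were therefore nearly fixed in advance, and nothing is read from them. The 89 genes that differed from Gfap-expressing barcodes became 142 with library sizes alone, 27 in DESeq2 (29.6% higher in the members, in place of 61.8%), 296 over all genes with 1 or more counts, 0 with no replicate block (651 at an unadjusted p under 0.05, and 1246 with it), 20 under 20% mitochondrial UMIs (35% higher), 694 with at least 6 of 8 markers (49.4% higher) and 345 without barcodes holding another class's markers (46.4% higher), under which Hbb-bt (-0.38) and Hbb-bs (-0.21) turned over. Crym kept its call in 8 of 9 settings (all but the one with no replicate block), with log2 fold changes from 1.98 to 2.26. Other named genes held less well: Gabbr2, Gpc5, Grm3, Mertk, Htra1, Kcnk1 and Timp4 passed in 6 of 9 settings and Slc7a10, Slco1c1 and Lsamp in 5, with adjusted p up to 0.878, and of the lower genes Ecrg4 and Jund passed in 6 and C4b in 5, with adjusted p up to 1. The 102 genes with a Fano factor of 2 became 44 at 1000 UMIs and 50 without barcodes holding another class's markers. The Gfap-expressing gate had 41 to 58 barcodes per library, which limits that comparison, and leaving out 1 library left it without a test. The cause of these shifts was not tested.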

Other observations

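Some barcodes with astrocyte markers were kept out by the exclusion genes, which chose them. With 2000 or more UMIs and at least 5 astrocyte markers but 2 or more exclusion UMIs, there were 328 in library 1 and 216 in library 2, with medians of 9932 and 10368 UMIs against 4749 and 6442 in the members. Mog, of oligodendrocytes, was the leading exclusion gene in 104 and 75 of them, with medians of 27.5 and 27 Mog UMIs. Pdgfra, of OPCs, led in 96 and 80, Cx3cr1, of microglia, in 84 and 33, and Cldn5, of endothelial cells, in 44 and 28. Scrublet marked 27 (8.23%) and 57 (26.4%) of these barcodes. It marked 1 of 96 and 7 of 80 of those led by Pdgfra, a lower share than in those led by Cx3cr1 (17 of 84 and 14 of 33), a difference that was not tested. Of those led by Mog it marked 4 of 104 and 24 of 75, and of those led by Cldn5 5 of 44 and 12 of 28.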
